A study of Mus musculus with 15 samples.

Results

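The hearts compared here were the 5 with the highest and the 5 with the lowest Nppa transcript level among 15 pressure-overloaded mouse hearts, whatever drug the mice had received. They were chosen by the deposited FPKM (fragments per kilobase of transcript and per unit of sequencing depth, so a level scaled to gene length and library size) of Nppa itself, so 10 of 15 libraries entered the comparison and the 5 between them are given as values only. All hearts came from C57BL/6 mice, labelled WT and 8 to 10 weeks of age, after transverse aortic constriction, a surgical band that narrows the aorta so that the left ventricle pumps against raised pressure. From 4 weeks after banding the mice drank donepezil at 5 mg/kg/day, encenicline (EVP-6124) at 2 mg/kg/day or physiological saline, with 15 mice randomised to each drug, and the libraries are labelled 8 weeks of banding. Donepezil blocks acetylcholinesterase and encenicline is an agonist of the alpha7 nicotinic acetylcholine receptor. Each drug group has 5 libraries, every one of them from a banded heart. The high-Nppa hearts were 2 donepezil, 1 encenicline and 2 saline libraries, and the low-Nppa hearts were 0 donepezil, 3 encenicline and 2 saline libraries, so Nppa level and drug were not balanced. Drug names follow the sample titles. The treatment field of the labels names saline for donepezil 1, a middle heart, and donepezil for encenicline 1, the heart lowest in Nppa. The labels do not say in words that a library is 1 mouse, and if libraries share animals the spread shown is partly technical.

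Nppa encodes atrial natriuretic peptide, a hormone that makes the kidney excrete salt and relaxes blood vessels. In the healthy adult it is made mainly in the atria, while ventricular muscle cells switch it on again when they are stretched or hypertrophy, together with other genes of the fetal heart such as Nppb, Acta1 and Myh7. Pressure overload also turns resident fibroblasts into matrix-secreting cells that lay down collagens, periostin and thrombospondins. Nppa is therefore widely used as a marker of ventricular load.

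The annotation in the deposited table places Nppa (ENSMUSG00000041616) on chromosome 4, from 148000722 to 148002079 on GRCm38. Its FPKM was 857 in donepezil 4, 287 in saline 3, 124 in saline 1, 119 in encenicline 4 and 112 in donepezil 5, the 5 high hearts. The low hearts had 57.0 in encenicline 5, 44.9 in encenicline 2, 41.6 in saline 2, 36.2 in saline 5 and 29.2 in encenicline 1. Between them lay 104 in saline 4, 104 in donepezil 1, 93.2 in donepezil 3, 92.5 in donepezil 2 and 79.3 in encenicline 3. The high hearts averaged 300.1 ± 319.9 FPKM and the low hearts 41.77 ± 10.36 FPKM (SD, n = 5 each), and the extremes differed 29.3-fold. Donepezil 4 stood far above every other heart, and without it the 4 remaining high hearts averaged 160.9 ± 84.33 FPKM. The edges of the groups were close to their neighbours: the lowest high heart had 112 FPKM and the next in rank 104, while the highest low heart had 57.0 and the next above it 79.3. These values chose the groups and are given as a description, with no test.

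**Figure D1:**
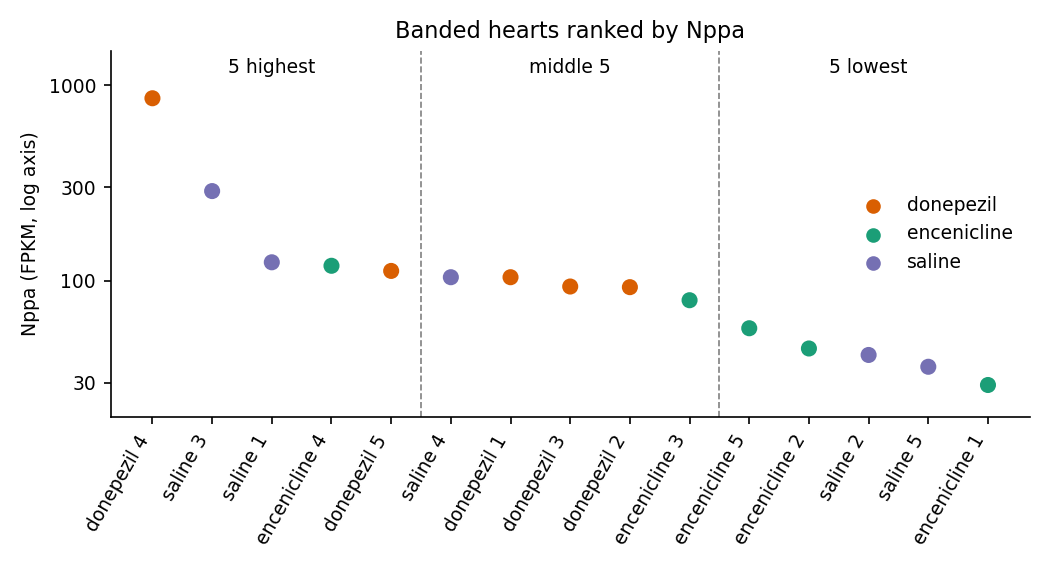
Nppa level in FPKM (log axis) of the 15 banded hearts, ranked from high to low, each point 1 library coloured by drug. The 5 highest run from 857 down to 112 FPKM and the 5 lowest from 57.0 to 29.2 FPKM; dashed lines mark the edges of the groups.

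The depth ranges of the groups overlapped. The gene-assigned reads that the FPKM values imply were 15028535 to 16749517 in the high hearts and 14496147 to 17176086 in the low hearts. Mitochondrially encoded genes took 17.4 to 25.0% of reads in the high hearts and 19.5 to 27.0% in the low hearts, with donepezil 4 the lowest of all. The FPKM summed to 361640 to 496945 per high heart and 425429 to 524826 per low heart. Rescaling every library to an equal sum moved the median log2 difference of all genes to 0.08, against -0.01 as deposited, and differences are best read relative to that shift. Muscle of the ventricle dominated every library: Myl2, the ventricular myosin light chain, lay at 1629 FPKM or above in all 10 hearts, whereas the atrial light chain Myl7 reached at most 1.78 FPKM, Myl4 0.746 FPKM in the 10 hearts, and the atrial genes Sln and Bmp10 at most 0.0979 and 0.0257 FPKM. Of 10 atrial marker genes 8 were measured, with 1 higher (Dkk3), 2 lower (Kcnj3 and Kcnj5) and a median log2 difference of -0.03. Their summed level was 22.3 to 29.6 FPKM in the high hearts and 28.6 to 35.9 FPKM in the low hearts.

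The proximal promoters of Nppa and of 3 load-responsive genes described below are shown because Nppa set the ranking and the other genes are its usual companions under load. All are RefSeq sequences on GRCm38.p6, from 250 bases before to 50 bases after the annotated start, written on the strand of the gene. Capitals mark CATTCC on either strand, the core that TEAD factors bind, and, in Acta1, a CArG box, the site of serum response factor.
Nppa, chr4:148000472-148000771, plus strand: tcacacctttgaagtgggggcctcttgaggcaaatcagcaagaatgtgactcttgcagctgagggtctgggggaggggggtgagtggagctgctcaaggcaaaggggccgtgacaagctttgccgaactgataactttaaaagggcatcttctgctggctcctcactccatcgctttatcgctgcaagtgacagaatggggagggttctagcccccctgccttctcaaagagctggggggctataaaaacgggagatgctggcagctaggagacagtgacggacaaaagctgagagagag
Nppb, chr4:147985650-147985949, plus strand: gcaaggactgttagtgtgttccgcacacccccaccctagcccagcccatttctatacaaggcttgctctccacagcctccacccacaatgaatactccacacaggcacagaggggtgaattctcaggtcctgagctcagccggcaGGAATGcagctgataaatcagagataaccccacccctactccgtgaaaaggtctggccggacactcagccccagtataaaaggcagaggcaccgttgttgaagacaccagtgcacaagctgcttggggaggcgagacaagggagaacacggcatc
Acta1, chr8:123894726-123895025, minus strand: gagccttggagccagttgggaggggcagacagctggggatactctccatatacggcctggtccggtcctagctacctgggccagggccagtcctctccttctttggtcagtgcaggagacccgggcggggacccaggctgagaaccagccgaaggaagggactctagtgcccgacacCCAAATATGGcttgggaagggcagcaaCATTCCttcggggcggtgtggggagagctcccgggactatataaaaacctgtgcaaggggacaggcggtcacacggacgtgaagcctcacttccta
Ankrd1, chr19:36119795-36120094, minus strand: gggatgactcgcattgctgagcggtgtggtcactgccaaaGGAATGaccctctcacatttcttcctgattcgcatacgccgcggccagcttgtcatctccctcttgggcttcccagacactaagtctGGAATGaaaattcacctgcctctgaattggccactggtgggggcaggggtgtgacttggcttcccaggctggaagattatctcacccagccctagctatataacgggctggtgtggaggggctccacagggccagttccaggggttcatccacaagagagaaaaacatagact
In Acta1 the CArG box lay at -73 to -64 and the TEAD core at -46 to -41, counted from the start site, and in Ankrd1 the TEAD core occurred at -210 to -205 and at -123 to -118. Nppb held 1 TEAD core at -105 to -100. The window of Nppa held neither motif. Over 32851 promoters of the same length, 14.7% held a TEAD core and 1.63% a CArG box. An AP-1 motif (TGANTCA, in 7.81% of promoters) and an E-box (CACGTG, in 7.15%), searched on both strands, were in none of these 4 windows. Windows of other genes described below were searched too and are not printed. The TEAD core had 1 match in Timp1 and 2 in Thbs4, but 0 in Postn, Cilp, Gja1, Kcnj3 and Kcnj5. An AP-1 motif lay in Gja1 at -19 to -13. None of these further windows held a CArG box or an E-box. A match describes letters in a window and is not evidence of binding.

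Across the 13395 genes other than Nppa that reached 0.5 FPKM in 5 or more of the 15 hearts, the high and low hearts seldom parted cleanly. A gene was counted as separated when all 5 hearts of 1 group lay above all 5 of the other; since the groups come from a readout of the same libraries, no p-value was computed. In the high-Nppa hearts 113 genes (0.844%) were separated and higher and 84 (0.627%) separated and lower. With values rescaled to an equal sum per library the counts were 118 higher and 41 lower, so the balance of the directions depends on the scaling. Of the separated genes 20 (0.149%) were at least 2-fold higher and 5 (0.0373%) at least 2-fold lower, taking differences as mean log2(FPKM + 0.5) of the high minus the low hearts, a scale that understates differences of scarce transcripts. The median difference was 0.51 among the genes separated higher and -0.39 among those separated lower. Of all 13395 differences 6387 were positive and 7008 negative, the background for the counts of each gene list. The lists were written with earlier results of these data known, so their counts beside this background are a description only.

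With donepezil 4 left out and not replaced, 141 genes (1.05%) were separated higher and 104 (0.776%) lower; dropping a heart can only add separated genes. When the other 14 hearts were ranked anew and 5 set against 5, 100 were higher and 65 lower, among them 84 of the 113 and 56 of the 84. Saline 4 took the place of donepezil 4 and the other hearts stayed, so separation could be lost only through saline 4. With every value centred on the mean of its drug group, 49 genes (0.366%) were separated higher and 38 (0.284%) lower, among them 28 of the 113 and 23 of the 84. Centring carries a limit of its own. The donepezil mean includes donepezil 4, so the centred log2 Nppa of donepezil 5 was -0.45, under that of encenicline 5 at -0.05, although its FPKM was the higher of the pair. All 113 and all 84 kept their sign under centring, as did 11445 of all 13395 genes. The mean of the middle hearts, which did not enter the choice of genes, lay between the means of the 2 groups for 93 of the 113 (82.3%) and 74 of the 84 (88.1%). Over all 13395 genes it did so for 5193 (38.8%). The shares are a description, since genes chosen for a wide gap leave more room for it. Donepezil 4 was the highest of the 10 hearts in 62 of the 113 and the lowest in 45 of the 84. Over all 13395 genes it was the highest of the high hearts in 3235 and the lowest of them in 3643.

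**Figure D2:**
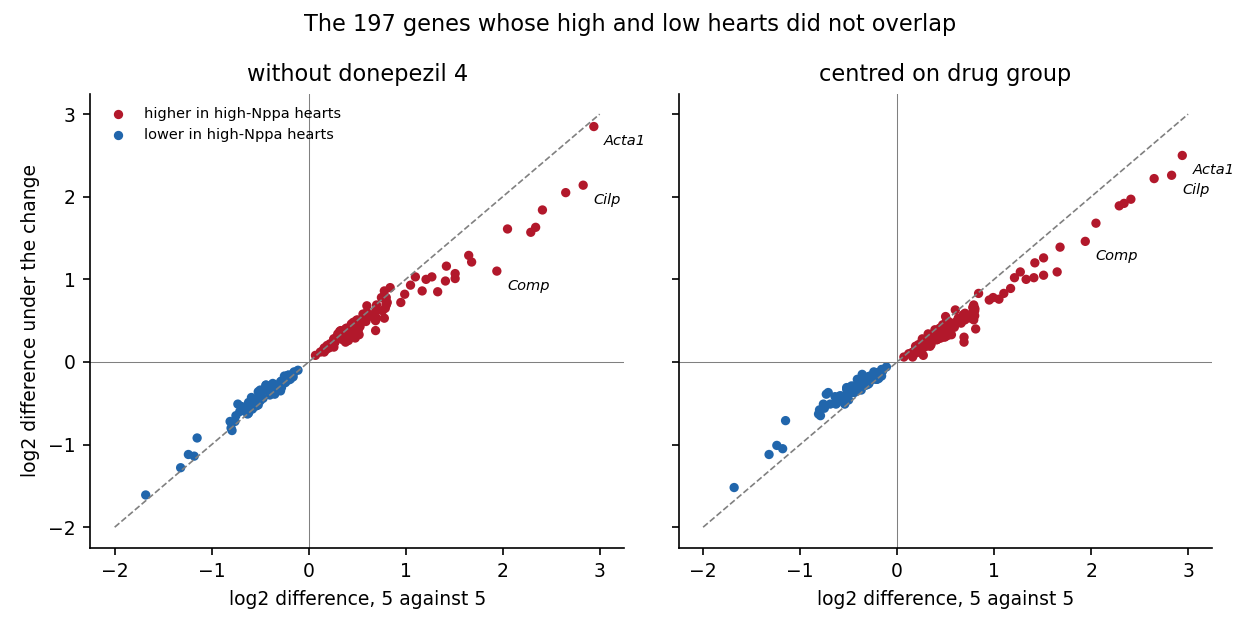
Log2 differences, high minus low Nppa, of the 197 separated genes: 5 against 5 hearts on the horizontal axes, and on the vertical axes without donepezil 4 (left) or centred on drug group (right). Each point is a gene, the dashed line is equality; Acta1 lies near it without donepezil 4 (2.85 against 2.94), whereas Comp has 1.10 there and 1.94 with all 10 hearts.

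Acta1, skeletal alpha-actin, a sarcomeric actin of the fetal heart, had the largest difference of the protein-coding genes separated. Its FPKM was 1568 in donepezil 4, 2735 in saline 3, 1501 in saline 1, 812 in encenicline 4 and 538 in donepezil 5, against 249 in encenicline 5, 108 in encenicline 2, 199 in saline 2, 134 in saline 5 and 145 in encenicline 1. The lowest high heart had more than the highest low heart by a wide margin, and the highest heart was saline 3, not donepezil 4. Means were 1431 ± 852 FPKM in the high hearts and 167 ± 56.6 FPKM in the low hearts (SD, n = 5 each), a log2 difference of 2.94 ± 0.46 (SE). It was 2.85 without donepezil 4 and 2.50 after centring, when the groups overlapped. Within saline alone it was 3.63 and within encenicline alone 2.36. The middle hearts ran from 164 FPKM in donepezil 2 to 893 FPKM in donepezil 3.

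The companion peptide gene Nppb (brain natriuretic peptide), which neighbours Nppa on chromosome 4, did not follow as closely. It had 477 FPKM in donepezil 4, 512 in saline 3, 127 in saline 1, 369 in encenicline 4 and 171 in donepezil 5, against 230 in encenicline 5, 125 in encenicline 2, 94.3 in saline 2, 183 in saline 5 and 127 in encenicline 1. The groups overlapped, with saline 1 and donepezil 5 inside the low range. The log2 difference was 0.99 ± 0.46, or 0.81 without donepezil 4 and 1.17 after centring. Of the 8 natriuretic system genes measured besides Nppa, 0 were separated and the median difference was -0.03; Corin, the protease that activates the Nppa precursor, had -0.29 ± 0.15, and Npr1, the receptor of both peptides, -0.20 ± 0.13.

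Myh7, the slow beta-myosin heavy chain of the fetal ventricle, also overlapped. Its level was 172 FPKM in donepezil 4, 25.4 in saline 3, 14.4 in saline 1, 17.4 in encenicline 4 and 30.1 in donepezil 5, against 8.75 in encenicline 5, 14.7 in encenicline 2, 12.4 in saline 2, 36.8 in saline 5 and 9.26 in encenicline 1. Saline 5, a low-Nppa heart, exceeded all high hearts but donepezil 4. The log2 difference of 1.16 ± 0.73 was 0.56 without donepezil 4, and within saline it was -0.16. Myh6, the fast alpha-myosin chain of the adult mouse ventricle, averaged 2442 ± 417 FPKM in the high hearts and 2855 ± 232 FPKM in the low hearts (log2 difference -0.24 ± 0.13, groups overlapping). Of 12 fetal contractile genes 2 were separated higher, Acta1 and the intermediate filament gene Des, and the list median was 0.16; after centring 0 were separated. Des had 0.38 ± 0.15, or 0.24 without donepezil 4, and was separated neither after ranking anew without that heart nor after centring. Of 16 adult sarcomere genes 0 were separated and the median was -0.06; Tnni3, cardiac troponin I, had -0.56 ± 0.23 with overlapping groups.

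**Figure D3:**
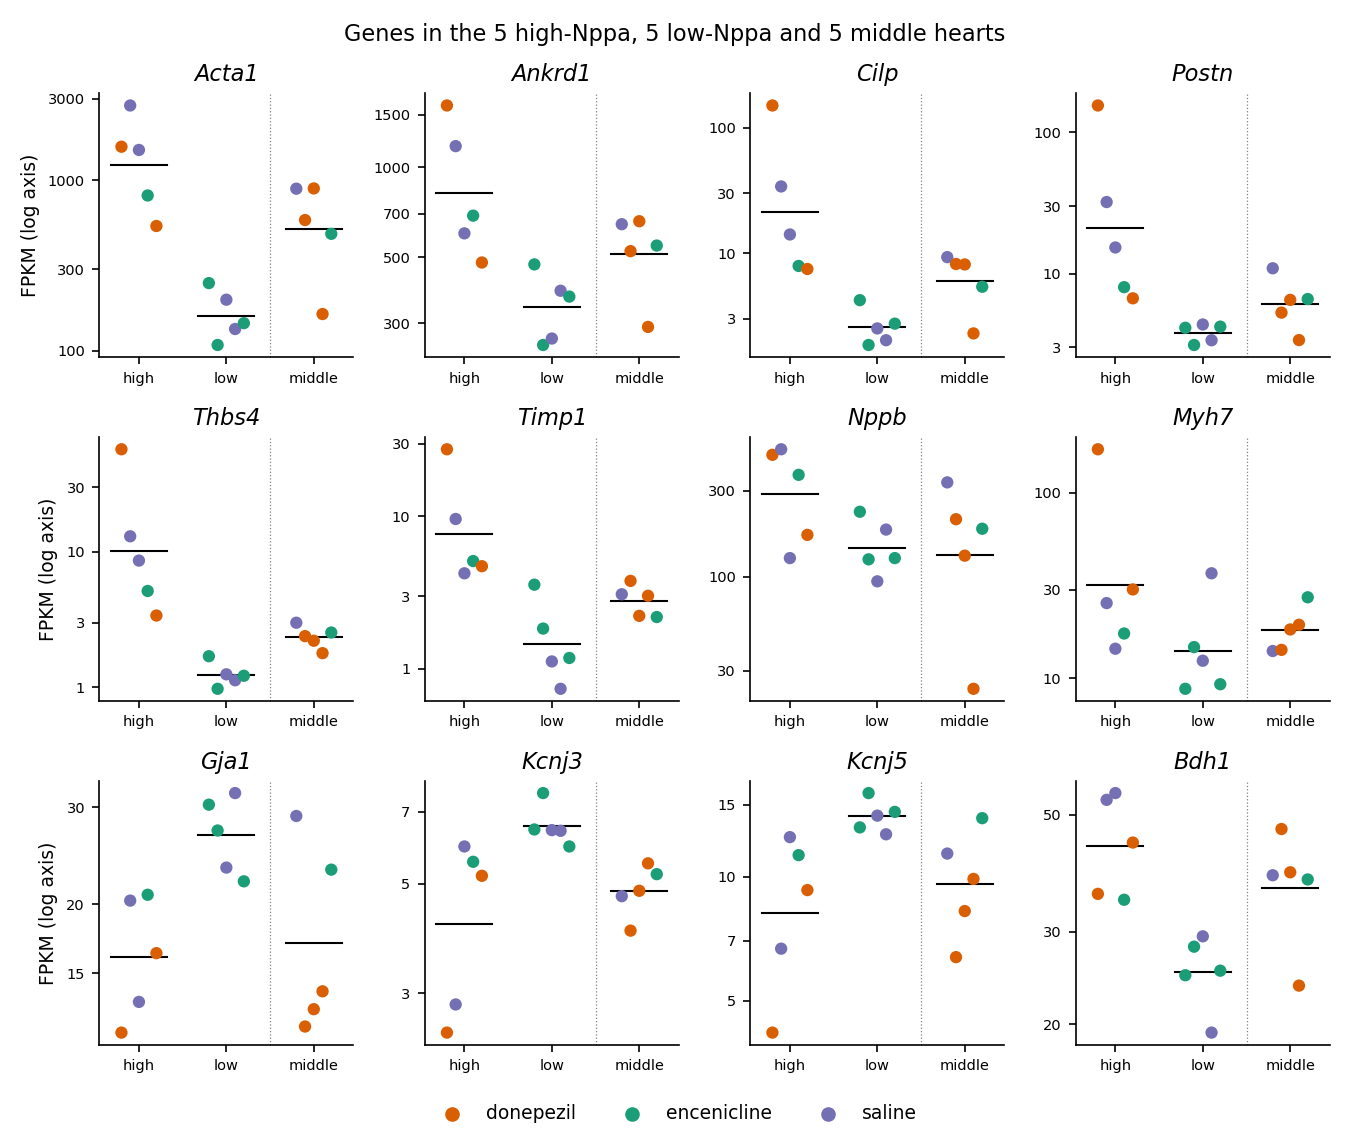
FPKM (log axes) of 12 genes in the 5 high-Nppa, 5 low-Nppa and 5 middle hearts, each point 1 library coloured by drug and each bar the geometric mean. High and low hearts do not overlap in 10 of the panels, from Acta1 (lowest high 538, highest low 249 FPKM) to Bdh1 (lowest high 34.5, highest low 29.4 FPKM), whereas they do in Nppb and Myh7.

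Most genes on the list of stretch and hypertrophic stress were higher. Of 21 measured, 7 were separated higher and 0 lower, 19 differences were positive and the median was 0.49, against -0.01 over all genes. Among all 13395 genes 6387 differences were positive and 0.844% were separated higher. The median was 0.40 without donepezil 4 and 0.39 after centring, when 3 members were separated. Ankrd1, a titin-bound sensor of stretch that also acts in the nucleus, had 1612 FPKM in donepezil 4, 1178 in saline 3, 601 in saline 1, 689 in encenicline 4 and 480 in donepezil 5, against 473 in encenicline 5, 254 in encenicline 2, 267 in saline 2, 386 in saline 5 and 369 in encenicline 1. Donepezil 5 and encenicline 5 nearly met, and the log2 difference was 1.27 ± 0.36 (1.03 without donepezil 4, 1.09 after centring with overlap). Ctgf, a matricellular growth factor induced by stretch, averaged 60.8 ± 57.0 FPKM in the high hearts and 17.0 ± 4.68 FPKM in the low hearts. Of its high values 162 FPKM was donepezil 4 and the rest lay at 28.6 to 43.2 FPKM, so that the log2 difference was 1.51 ± 0.49 with and 1.07 without that heart. Xirp2, an actin-binding protein of the intercalated disc, had 76.7 FPKM in donepezil 4, 52.2 in saline 3, 37.8 in saline 1, 37.6 in encenicline 4 and 45.3 in donepezil 5, against 28.0 in encenicline 5, 31.2 in encenicline 2, 28.6 in saline 2, 28.8 in saline 5 and 32.5 in encenicline 1. Its difference was smaller than that of Ankrd1, 0.68 ± 0.19, but the hearts were separated in each of the 3 forms of the comparison (5 against 5, ranked anew without donepezil 4, and centred). Fhl1, a LIM protein of the titin stretch complex, had 0.49 ± 0.11 and was separated also after centring, though not when hearts were ranked anew without donepezil 4.

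Matrix genes were among those with the largest differences, and their values depended strongly on donepezil 4. Of 33 extracellular matrix genes measured, 7 were separated higher and 0 lower, 32 of the 33 differences were positive and 17 were at least 2-fold with or without separation, against 69 genes of 13395 overall. The list median of 1.00 was 0.57 without donepezil 4 and 0.77 after centring, when 0 were separated. It was 0.85 within saline and 0.26 within encenicline. Cilp, cartilage intermediate layer protein, a matrix protein that restrains TGF-beta, had 150 FPKM in donepezil 4, 34.0 in saline 3, 14.1 in saline 1, 7.92 in encenicline 4 and 7.49 in donepezil 5, against 4.23 in encenicline 5, 1.86 in encenicline 2, 2.52 in saline 2, 2.03 in saline 5 and 2.75 in encenicline 1. The values descended with Nppa rank inside the high group. Its log2 difference was 2.83 ± 0.81, or 2.14 without donepezil 4.

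Postn, periostin, the matricellular protein that marks activated fibroblasts, had 155 FPKM in donepezil 4, 32.1 in saline 3, 15.3 in saline 1, 8.01 in encenicline 4 and 6.68 in donepezil 5, against 4.13 in encenicline 5, 3.12 in encenicline 2, 4.36 in saline 2, 3.37 in saline 5 and 4.21 in encenicline 1. The low hearts lay close together while the high hearts were widely spread. On the log2 scale the difference was 2.34 ± 0.81, and 1.63 without donepezil 4. Thbs4, thrombospondin 4, a stress-induced matrix and endoplasmic reticulum protein, had 56.9 FPKM in donepezil 4, 13.0 in saline 3, 8.61 in saline 1, 5.14 in encenicline 4 and 3.39 in donepezil 5, against 1.70 in encenicline 5, 0.978 in encenicline 2, 1.25 in saline 2, 1.13 in saline 5 and 1.22 in encenicline 1. Its log2 difference was 2.65 ± 0.68, and 2.05 without donepezil 4. Ltbp2, which binds to microfibrils, had 2.29 ± 0.78 (1.57 without donepezil 4), Comp, a thrombospondin of cartilage and tendon, 1.94 ± 0.90 (1.10), Col8a1, a short-chain collagen, 1.68 ± 0.58 (1.21), and Mfap5, a microfibril protein, 1.41 ± 0.50 (0.98); each was separated in 5 against 5 and after ranking anew, and none after centring.

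The fibrillar collagens themselves were not separated. Col1a1 had 229 FPKM in donepezil 4, 42.8 in saline 3, 29.3 in saline 1, 15.7 in encenicline 4 and 16.9 in donepezil 5, against 18.2 in encenicline 5, 12.6 in encenicline 2, 22.4 in saline 2, 13.6 in saline 5 and 9.80 in encenicline 1. Encenicline 4 and donepezil 5 lay inside the low range. The log2 difference was 1.34 ± 0.72, and 0.69 without donepezil 4; for Col3a1 the values were 1.36 ± 0.72 and 0.74. Timp1, the inhibitor of matrix metalloproteinases, was the 1 separated member of 21 matrix crosslinking and proteolysis genes, whose median was 0.36 (0.26 without donepezil 4, 0.19 after centring). It had 27.6 FPKM in donepezil 4, 9.63 in saline 3, 4.24 in saline 1, 5.10 in encenicline 4 and 4.72 in donepezil 5, against 3.57 in encenicline 5, 1.84 in encenicline 2, 1.12 in saline 2, 0.741 in saline 5 and 1.18 in encenicline 1. The log2 difference of 2.05 ± 0.56 was 1.61 without donepezil 4, and the separation was lost when hearts were ranked anew.

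Among 20 genes of TGF-beta signalling and fibroblast activation, 2 were separated higher and 18 differences were positive, with a median of 0.44 (0.31 without donepezil 4, 0.31 after centring). Tgfb2, a TGF-beta ligand, had 3.44 FPKM in donepezil 4, 2.97 in saline 3, 1.86 in saline 1, 2.16 in encenicline 4 and 1.87 in donepezil 5, against 1.62 in encenicline 5, 1.40 in encenicline 2, 1.60 in saline 2, 1.60 in saline 5 and 1.46 in encenicline 1. The difference of 0.51 ± 0.15 was modest but separated in each of the 3 forms of the comparison. Tgfb1, another ligand of the family, had 0.21 ± 0.16 with overlapping groups.

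**Figure D4:**
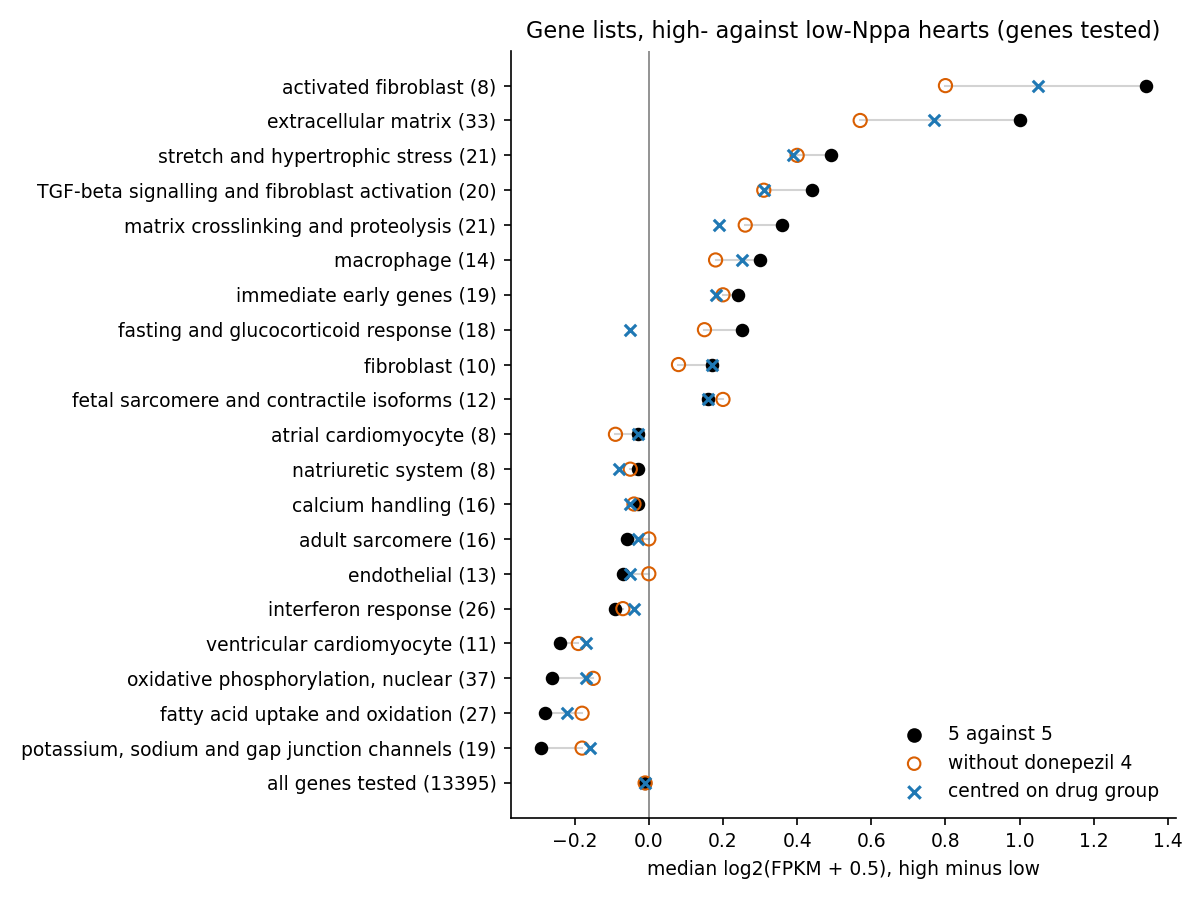
Median log2 difference, high minus low Nppa, of 20 gene lists and of all genes tested, with the number of genes measured in brackets: filled points for 5 against 5 hearts, open circles without donepezil 4, crosses after centring on drug group. Activated fibroblast (1.34) and matrix genes (1.00) stand furthest right and shift most without donepezil 4, to 0.80 and 0.57.

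Markers of cell types were followed because in RNA of mixed tissue fewer cells of a type and less RNA per cell cannot be told apart. The labels do not name the part of the heart sampled. Of 8 activated fibroblast markers 4 were separated higher (Cilp, Thbs4, Postn and Comp, all of them matrix genes already described), the summed level was 86.3 to 506 FPKM in the high hearts and 58.6 to 103 FPKM in the low hearts, and the median difference was 1.34 (0.80 without donepezil 4). Acta2, the smooth muscle actin of myofibroblasts, had 0.13 ± 0.22. Of 10 general fibroblast markers 2 were separated higher, with a median of 0.17 (0.08 without donepezil 4) and summed levels of 706 to 907 FPKM in the high hearts and 741 to 812 FPKM in the low hearts. They were Mfap5 and Pi16, a fibroblast peptidase inhibitor, which averaged 35.3 ± 11.0 FPKM in the high hearts and 19.6 ± 2.72 FPKM in the low hearts (log2 difference 0.79 ± 0.22) and stayed separated in each of the 3 forms.

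Macrophage markers overlapped between groups. Of 14 measured 0 were separated, 12 differences were positive and the median was 0.30 (0.18 without donepezil 4), with summed levels of 157 to 366 FPKM in the high hearts and 163 to 212 FPKM in the low hearts. Adgre1, which encodes F4/80, had 0.37 ± 0.31, and 0.18 without donepezil 4. Ccr2, a receptor of recruited monocytes, had 0.43 ± 0.34 (0.16 without donepezil 4), and Ccrl2, the atypical chemerin receptor named in the title of the study, -0.13 ± 0.12. Il1b had 0.33 ± 0.32. Of 26 interferon response genes 0 were separated (median -0.09, or 0.01 after rescaling to an equal sum), and of 13 endothelial markers 0 (median -0.07). Of 10 T and NK cell markers 0 reached the expression threshold. All 5 erythroid markers measured were positive (median 0.46, or 0.23 after centring), with 0 separated, but the median was 1.37 within saline and -0.73 within encenicline, and the summed level was 109 to 729 FPKM in the high hearts and 105 to 422 FPKM in the low hearts. Their part in the differences was not tested.

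Of 19 potassium, sodium and gap junction channel genes measured, 3 were separated and lower in the high-Nppa hearts and 0 higher. Of their differences 17 were negative and the median was -0.29 (-0.18 without donepezil 4, -0.16 after centring, when 0 were separated). Summed levels overlapped, at 217 to 344 FPKM in the high hearts and 313 to 385 FPKM in the low hearts. Kcnj5 and Kcnj3 encode GIRK4 and GIRK1, which together form the potassium channel opened by acetylcholine through muscarinic receptors, and both are richer in atrium and pacemaker tissue than in ventricle. Kcnj5 had 4.18 FPKM in donepezil 4, 6.69 in saline 3, 12.5 in saline 1, 11.3 in encenicline 4 and 9.29 in donepezil 5, against 13.2 in encenicline 5, 16.0 in encenicline 2, 14.1 in saline 2, 12.7 in saline 5 and 14.4 in encenicline 1. Saline 1 at 12.5 and saline 5 at 12.7 FPKM nearly met. On the log2 scale the difference was -0.73 ± 0.27, or -0.51 without donepezil 4. Kcnj3 averaged 4.40 ± 1.61 FPKM in the high hearts and 6.57 ± 0.629 FPKM in the low hearts (-0.59 ± 0.24), with saline 1 and encenicline 1 both at 5.95 FPKM to the digits shown, so the separation is marginal.

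Gja1 encodes connexin 43, the main gap junction protein of the ventricle. It had 11.7 FPKM in donepezil 4, 20.3 in saline 3, 13.3 in saline 1, 20.8 in encenicline 4 and 16.3 in donepezil 5, against 30.3 in encenicline 5, 27.2 in encenicline 2, 23.3 in saline 2, 31.8 in saline 5 and 22.0 in encenicline 1. The log2 difference was -0.71 ± 0.19, and -0.60 without donepezil 4. The donepezil hearts of the middle group were also low, at 12, 12.9 and 13.9 FPKM, and after centring on drug the difference was -0.37 with overlapping groups. Ranking anew without donepezil 4 gave -0.46 and ended the separation of Gja1, with saline 4 at 28.9 FPKM. Kcnn2, a calcium-activated potassium channel, had -0.50 ± 0.12. Kcnip2, the subunit of the transient outward channel that is commonly lost in hypertrophy, had -0.42 ± 0.15 without separation, and its partner Kcnd2 -0.36 ± 0.18.

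Calcium handling genes showed 0 of 16 separated and a median of -0.03. Atp2a2, the sarcoplasmic reticulum calcium pump, averaged a log2 difference of -0.23 ± 0.17, Ryr2, the release channel, -0.12 ± 0.21, and Pln, the inhibitor of the pump, -0.42 ± 0.22, all with overlapping groups.

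Of the genes of energy metabolism few were separated, but their differences leaned to 1 side. All 37 nuclear genes of oxidative phosphorylation had negative differences and 0 were separated, with a median of -0.26. The lean came mainly from donepezil 4 and saline 3, with list averages of -0.58 and -0.39. In the other high hearts the average was -0.03 in saline 1, 0.07 in donepezil 5 and 0.31 in encenicline 4. The low hearts had 0.07 to 0.21, so encenicline 4 lay above all of them. Among all 13395 genes 7008 differences were negative and 0.627% were separated lower. The list median was -0.15 without donepezil 4, -0.17 after centring and -0.15 after rescaling to an equal sum. It was -0.28 within saline but 0.13 within encenicline, a value that rests on 1 high heart. Donepezil had no low heart, so the direction could be compared in saline and encenicline only. Of 27 genes of fatty acid uptake and oxidation 26 were negative and 0 separated (median -0.28, or -0.18 without donepezil 4); Etfb, which passes electrons to the respiratory chain, had -0.60 ± 0.29 and Acaa2, the last enzyme of the mitochondrial spiral, -0.58 ± 0.25. For Etfb the difference was -0.87 within saline and 0.34 within encenicline, and for Acaa2 -0.59 and 0.02. The average of the fatty acid list was -0.57 in donepezil 4 and -0.43 in saline 3. It was -0.04 to 0.15 in the other high hearts and 0.02 to 0.25 in the low hearts. The lower mitochondrial read share of donepezil 4 and negative differences of most ventricular markers accompanied these values. Of 11 ventricular muscle markers 10 were negative and 0 separated (median -0.24). Their summed levels were 12213 to 21007 FPKM in the high hearts and 17213 to 19614 FPKM in the low hearts. The median of these markers was -0.29 within saline and 0.11 within encenicline. Their list average was -0.50 in donepezil 4 and -0.30 in saline 3. It was -0.01 to 0.20 in the other high hearts and 0.11 to 0.19 in the low hearts. The part of the read share and of the ventricular markers in the metabolic differences was not tested. Of 18 metabolic transcription factors 0 were separated, 12 differences were negative and the median was -0.10, while after rescaling to an equal sum 9 were positive. Their largest positive differences were those of Ppargc1a, a coactivator of mitochondrial genes (0.46 ± 0.35), and of Ppara, a receptor for fatty acids (0.32 ± 0.37, or 0.08 after centring), and their largest negative one that of Rxrg, a partner of such receptors (-0.28 ± 0.17, or -0.12 without donepezil 4).

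Bdh1, the mitochondrial enzyme that oxidises the ketone body beta-hydroxybutyrate, was the 1 member with a positive difference among 23 genes of the tricarboxylic acid cycle and branched-chain oxidation, a list with a median of -0.27. It had 35.4 FPKM in donepezil 4, 53.4 in saline 3, 55.0 in saline 1, 34.5 in encenicline 4 and 44.3 in donepezil 5, against 24.8 in encenicline 5, 28.1 in encenicline 2, 29.4 in saline 2, 19.3 in saline 5 and 25.3 in encenicline 1. Donepezil 4 was among the lower of the high hearts here, and the log2 difference of 0.78 ± 0.17 was 0.86 without it and 0.66 after centring, with the hearts separated in each of the 3 forms.

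Donepezil hearts were in the high and the middle group only, so for some genes the level in the middle donepezil hearts is given beside the difference. Of 18 genes of the fasting and glucocorticoid response 17 differences were positive and 1 was separated higher, with a median of 0.25. The median was 0.15 without donepezil 4 and -0.05 after centring on drug, when 0 were separated. The separated member was Cebpd, a transcription factor induced by glucocorticoids and by cytokines. It had 22.4 FPKM in donepezil 4, 9.85 in saline 3, 11.6 in saline 1, 11.0 in encenicline 4 and 12.6 in donepezil 5, against 7.67 in encenicline 5, 6.50 in encenicline 2, 7.00 in saline 2, 8.61 in saline 5 and 9.52 in encenicline 1. The middle donepezil hearts had 17.7, 24.8 and 20.3 FPKM in donepezil 1, 2 and 3, above every high heart but donepezil 4, and the log2 difference of 0.69 ± 0.22 was 0.24 after centring. Serpina3n, an acute-phase protease inhibitor, had 32.2 ± 23.9 FPKM in the high hearts and 8.81 ± 3.48 FPKM in the low hearts (log2 difference 1.65 ± 0.45, or 1.09 after centring), and the middle donepezil hearts had 31.3, 29.8 and 16.9 FPKM in donepezil 1, 2 and 3. The part of drug in these differences was not tested. Ranking anew without donepezil 4 ended the separation of both genes. Of 19 immediate early genes 19 differences were positive and 0 separated (median 0.24, or 0.18 after centring).

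The genes that stayed separated in all 3 forms of the comparison numbered 21 higher and 19 lower, and few of them had the largest differences: of the 12 protein-coding genes with the largest positive differences (such as Acta1, Cilp, Thbs4, Postn, Ltbp2, Timp1, Comp, Col8a1, Serpina3n, Ctgf and Dkk3) 0 were among them. Besides Bdh1, Xirp2, Tgfb2 and Pi16, the following of the 21 were picked for naming after their values were seen. Mybpc2, the fast skeletal isoform of myosin-binding protein C, averaged 8.99 ± 3.15 FPKM in the high hearts and 4.10 ± 0.317 FPKM in the low hearts (log2 difference 0.99 ± 0.20). Edn3, the peptide endothelin 3, averaged 1.43 ± 0.537 FPKM in the high hearts and 0.566 ± 0.206 FPKM in the low hearts (0.84 ± 0.20). Enah, an actin-elongating protein of the intercalated disc, had 0.46 ± 0.10, and Ugp2, which makes the UDP-glucose used for glycogen, 0.44 ± 0.13. Among the 19 lower genes were Il15, a cytokine that sustains NK and memory T cells, at 8.18 ± 1.66 FPKM in the high hearts and 12.7 ± 1.13 FPKM in the low hearts (-0.63 ± 0.14), the ubiquitin ligase gene Rnf5 (-0.54 ± 0.09), Sgf29, which reads histone H3 methylation (-0.54 ± 0.11), and Zfpm2, the GATA4 cofactor FOG2 (-0.40 ± 0.09). On the log2(FPKM + 0.5) scale the differences of Mybpc2, Edn3, Enah, Ugp2, Il15, Rnf5, Sgf29 and Zfpm2 were all under 2-fold. The mean FPKM of Mybpc2 and of Edn3 differed by more than 2-fold.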

How the data were processed

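The authors deposited FPKM per gene for 54532 genes in 15 libraries, with annotation. The tools named in the submitters' processing notes, with neither role nor order, are DESeq 1.8.3, featureCounts 1.5.0-p3 and HISAT, and the build is GRCm38. FPKM times gene length and 1 constant per library gave whole reads to within 0.05 in 100.0% of values, and depth was read from these; 27 gene symbols that a spreadsheet had made into dates were recovered. Differences are means of log2(FPKM + 0.5), high minus low, with a standard error from both SDs, computed with Python 3.11.15, pandas 2.3.3 and numpy 2.4.6; figures used matplotlib 3.10.9. The code was tested on simulated data. No p-value was computed, because Nppa of the same libraries set the groups. The hearts, the 45 gene lists and the alternatives were chosen with earlier results of these data known. Genes named are the 12 largest separated differences on each side (protein coding, mean of at least 1 FPKM), a preset list, up to 4 members of each list described, and those said to be picked later. The batch tag of the labels holds only the banding time, the same for all libraries. Differences of Hba-a1 and like paralogs, and of genes with antisense partners, may mix reads of both genes, since strand use in counting is not given in the sources used here. A few genes that the naming rule chose are not reported here.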

Additional observations from a re-analysis of the deposited data

Results flagged for a closer look

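Among 47 genes examined, donepezil 4 lay apart from the other 4 high-Nppa hearts in 2, judged on log2(FPKM + 0.5). For Ctgf its gap to the next heart on that scale was 0.764 of the range of the high group, with 162 FPKM against 28.6 to 43.2 FPKM in the other high hearts. For Lingo3, a neuronal leucine-rich repeat gene, the gap on the same scale was 0.783, with 0.794 FPKM against 1.5 to 1.76 FPKM. Of 94 groups of 5 hearts examined (47 genes), 2 exceeded Dixon's 95% critical value of 0.71, where chance alone flags about 1 in 20. The 157 named genes were not all examined in this way, so the 2 are not a full list. Donepezil 4 also stood far from the other high hearts in Des (1133 against 640 to 744 FPKM) and Gpx3 (445 against 127 to 170 FPKM). In Lgals3 it had 15.5 against 2.95 to 4.13 FPKM.

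Pln and Ppargc1a differed in direction between drug groups, in each case with every saline and every encenicline heart on its own side. The log2 difference of Pln was -0.60 within saline and 0.19 within encenicline, which lie -0.79 apart. That of Ppargc1a was 1.18 within saline and -0.58 within encenicline, which lie 1.76 apart. Other named genes had the same pattern, such as Etfb (-0.87 within saline and 0.34 within encenicline) and Myl2 (-0.64 and 0.34). The encenicline side has 1 high heart in every case, and none of these differences was tested.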

How the results depend on the processing

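Of 4239 recomputed differences of 157 named genes, 4205 moved by less than the spread between hearts and 34 moved by more. Of these values 0 of 1053 changed sign for the 39 genes whose groups were separated, and 67 of 3186 did for the 118 others, in 26 genes. The 39 were chosen for a full gap in hearts that most settings reuse, so a sign change was unlikely by construction. Of the recomputed list medians, 297 of 297 moved by less. The counts of separated genes depended far more on the setting, in part by construction, since fewer hearts part more easily. The 5-against-5 counts were 113 higher and 84 lower, of them 20 and 5 at least 2-fold. With 4 against 4 hearts they were 352 and 229 (49 and 8), with 6 against 6 they were 38 and 29 (11 and 3), and with 7 against 7 they were 11 and 10 (5 and 1). Without 1 heart they ran from 126 to 338 higher and 104 to 371 lower (16 to 39 and 5 to 13 at least 2-fold). The counts moved by over 1.5 times without saline 1 (177 and 151), encenicline 4 (338 and 371), donepezil 5 (260 and 154), encenicline 5 (172 and 131), saline 2 (172 and 147), encenicline 1 (179 and 148) and, for the lower genes, saline 5 (167). Without the 2 libraries whose labels conflict, of which 1 is compared, they were 179 and 148. With no filter 189 were higher, and at 2 FPKM 74. With an equal sum per library 41 were lower (3 at least 2-fold), and with ranks from those values 199 higher and 38 lower (2 at least 2-fold). Centred on drug group the counts were 49 and 38 (0 and 2). Centred on the group of the treatment field 4 and 3 were at least 2-fold, and centred and ranked again 220 were higher (40 and 2 at least 2-fold). With 2 against 2 hearts in each drug group they were 44 and 35 (6 and 1). With donepezil 4 left out and the hearts ranked again 9 were at least 2-fold higher. Pseudocounts of 0.1 and 1 gave 11 and 3 genes at least 2-fold lower. For centring and scaling the cause was not tested. No paired analysis was possible because Nppa level set the groups, replicate numbers do not pair them and no test was made. With 5 hearts a side and 1 far from the rest, standard errors of the matrix genes are wide, and small differences of scarce genes are not resolved at 14496147 to 17176086 reads.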
